A study of Mus musculus with 12 samples.

Results

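The genotype-by-temperature interaction compares the effect of Txnip loss on brown fat at 2 housing temperatures. For each gene it is the difference between Txnip-/- and WT at thermoneutrality (TN) minus the same difference at room temperature (RT). It was computed on log2(TPM + 1), where TPM is the level of a transcript scaled for its length and for library size, and 1 is added so that values of 0 can be used. A value of 1 therefore means that the Txnip-/- to WT ratio was doubled at TN relative to RT, apart from the shrinkage that the added 1 causes in low genes. All genes with a mean of at least 1 TPM over the 12 libraries were included, 12486 of the 25124 genes in the table. The last gene inside this limit, Stx1a, had a mean of 1.00025 TPM, and the first genes outside it, Wdr86 and 8430423G03Rik, had 0.9995 TPM.

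The libraries came from interscapular brown adipose tissue (BAT) of male mice of the C57B/6J background at 10 weeks of age, after 1 week of acclimation to either temperature. RT was 23 °C and TN was 30 °C, a temperature at which a mouse needs no extra heat production. WT and Txnip-/- mice were studied at each temperature, which makes 4 groups of 3 libraries. The study calls the WT mice littermates, and the knockout is not limited to brown fat by a Cre or a promoter that the sources name. The allele itself is not given in the sources used here. Poly(A) RNA was sequenced as single-end reads of 75 bases, with 29.93 to 47.44 reads per library in units of 1e6 (median 37.52). Within groups the libraries correlated with r between 0.9854 and 0.9934 across genes. The groups are described as triplicates without a list of animals, so the p-values measure the spread between these samples.

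Txnip encodes a protein of the alpha-arrestin family that binds thioredoxin and restrains glucose uptake, and its transcription rises with glucose metabolites. Brown adipocytes burn fatty acids and dissipate the energy as heat through uncoupling protein 1 in the mitochondrial inner membrane. Below thermoneutrality, sympathetic nerves release noradrenaline onto them and keep this program active, and at thermoneutrality the tissue loses mitochondria and takes on lipid.

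Txnip was the 1 gene whose interaction passed an adjusted p of 0.05 (0.00801% of the genes tested, limma with Benjamini-Hochberg adjustment). The next smallest adjusted p was 0.0776 and was shared by 19 genes. At an unadjusted p under 0.05 the interaction was found for 1571 genes (12.6%), of which 765 (6.13%) were higher and 806 (6.46%) lower in the TN than in the RT comparison. This split depended on the scaling. The higher share was 48.7% as given, 59.6% after upper-quartile scaling (896 higher, 608 lower) and 64.4% with the log-scale values of the authors (1068 higher, 590 lower). Limma with library weights called 60 genes at an adjusted p under 0.05 (0.481%), 48 of them higher and 12 lower. The log-scale values of the authors, normalized for each temperature apart, gave 42 genes (0.336%), 37 higher and 5 lower. These 2 lists shared 31 genes, which is 51.7% of the first and 73.8% of the second, among them Ucp3, Cox8b, Tfrc, Gpnmb and Jchain. With a library left out, 1 to 6 genes were called. There were 6 (Hspa1a, Hspa1b, Snora33, Tfrc, Txnip and Ucp3) without the RT WT library numbered 1, 3 (Clu, Gpnmb and Txnip) without RT Txnip-/- library 1 and 3 (Dmpk, Txnip and Ucp3) without TN Txnip-/- library 1. There were 2 without TN Txnip-/- library 2 and without TN WT library 3.

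The interaction is built from an effect at each temperature, called where the adjusted p was under 0.05 and the ratio of Txnip-/- to WT was below 0.8 or above its reciprocal. At RT 272 genes were called (2.18%), 145 higher (1.16%) and 127 lower (1.02%) in Txnip-/-. At TN 1133 genes were called (9.07%), 819 higher (6.56%) and 314 lower (2.51%). The Txnip-/- and WT libraries did not overlap for 2870 genes at RT (23.0%) and for 3850 genes at TN (30.8%). The RT count was 104 without the Txnip-/- library numbered 1, 80 without the Txnip-/- library numbered 3, 138 without the WT library numbered 1 and 86 without the WT library numbered 2. The TN count was 676 without the Txnip-/- library numbered 2.

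From these values 3 patterns were set out, as descriptions without a further test. TN-only genes were called at TN, had an RT ratio within these limits and an unadjusted interaction p under 0.05, and there were 394 of them (3.16%). RT-only genes met the mirrored conditions and numbered 63 (0.505%). Opposite genes differed in sign between the temperatures with an unadjusted p under 0.05 at each, and numbered 62 (0.497%). A gene can be both TN-only and opposite, as Mest was. Of the TN-only genes 287 were higher and 107 lower in TN Txnip-/-, and the sizes of their log2 differences centred on 0.55 at TN and 0.11 at RT (medians). The RT difference of 293 of the 394 had the same sign as the TN difference, against 1027 of the 1133 genes called at TN. The limits on the RT ratio and on the interaction p fix part of this share. These RT differences are small, so the sign of many is uncertain. Of the RT-only genes 34 were higher and 29 lower in RT Txnip-/-, and the opposite genes divided into 31 that were higher and 31 that were lower at TN. Without the TN Txnip-/- library numbered 2 there were 203 TN-only genes. RT-only genes numbered 32 without RT Txnip-/- library 1, 13 without RT Txnip-/- library 3 and 23 without RT WT library 2. Opposite genes numbered 105, 34 and 40 without RT Txnip-/- library 1, 2 and 3.

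**Figure D1:**
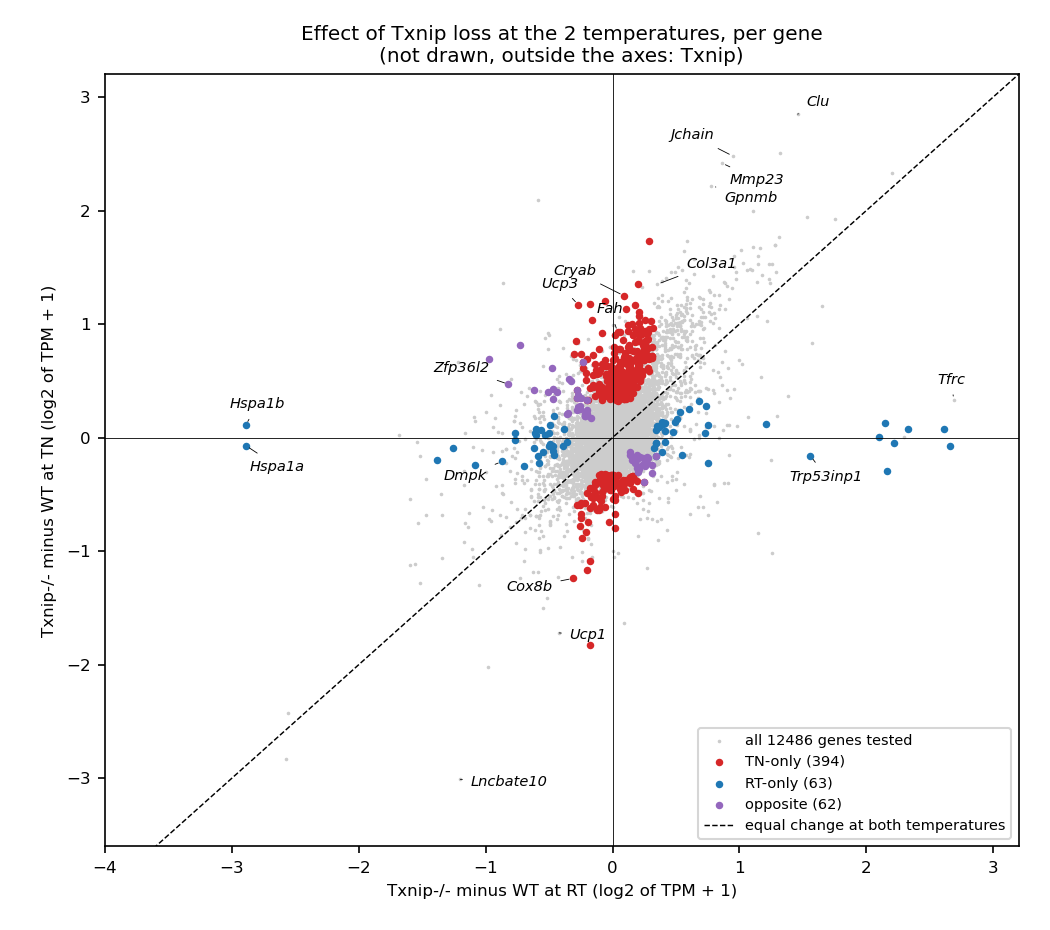
Log2 difference of Txnip-/- against WT at RT (x axis) and at TN (y axis) on log2(TPM + 1), 1 point per gene for the 12486 genes tested, with TN-only, RT-only and opposite genes in colour. Points on the diagonal have no interaction; the 394 TN-only genes lie above and below the centre, the 63 RT-only genes to its left and right, and Txnip, at -4.36 and -6.46, lies outside the axes.

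Which of the 4 groups stood apart varied within the patterns, and the choice of genes by their difference at a temperature fixes part of each share given here. Of the 287 TN-only genes that rose, 268 (93.4%) had all 3 TN Txnip-/- libraries above the other 9 libraries, against 13.1% of all genes tested. In 60 of the 107 TN-only genes that fell (56.1%, all genes 5.05%) the TN Txnip-/- libraries lay below all others, and in 36 (33.6%, all genes 4.6%) the TN WT libraries lay above all others. Among the 34 RT-only genes that rose, the RT WT libraries were the lowest of all in 20 (58.8%, all genes 9.52%) and the RT Txnip-/- libraries the highest in 17 (50.0%, all genes 2.18%). In 39 of the 62 opposite genes (62.9%) the Txnip-/- and WT libraries did not overlap at either temperature, which the choice of these genes largely fixes; over all genes 128 (1.03%) were apart in opposite directions.

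Markers of the cell types in the tissue moved with these patterns, and their part in the results below was not tested. In bulk tissue, fewer cells of a type and less RNA per cell cannot be told apart. The summed TPM of 8 brown adipocyte markers was 11417 to 12052 in RT WT, 8597 to 10847 in RT Txnip-/-, 6769 to 7618 in TN WT and 3743 to 4375 in TN Txnip-/-. The sum of 6 markers of any adipocyte, such as Adipoq and Plin1, overlapped between the genotypes at both temperatures, at 15695 to 21423 over all libraries. The 9 macrophage markers summed to 79.0 to 91.9, 131 to 213, 172 to 303 and 486 to 694 TPM in the same order of groups. The 5 fibroblast markers summed to 174 to 221, 213 to 260, 297 to 402 and 689 to 699 TPM. Of the 12 skeletal muscle markers 9 were tested. The sum of the list was 3.43 to 3.80 in RT WT and 29.8 to 73.7 in RT Txnip-/-. At TN this sum was high in 2 libraries only, the WT and the Txnip-/- library numbered 2, with 25.2 and 23.7 TPM against 4.28 to 5.73 in the other 4. Of these markers Tnnt3 and Pvalb were at 0 in at least 1 library. The same pair of libraries was highest in the 5 red blood cell markers, with 1222 and 1471 TPM against 480 to 762 in the other TN libraries. The 4 Schwann cell markers summed to 76.9 to 105 TPM in RT WT and 24.3 to 48.7 in RT Txnip-/-, and the genotypes overlapped at TN (41.0 to 60.9 and 26.5 to 53.3).

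**Figure D2:**
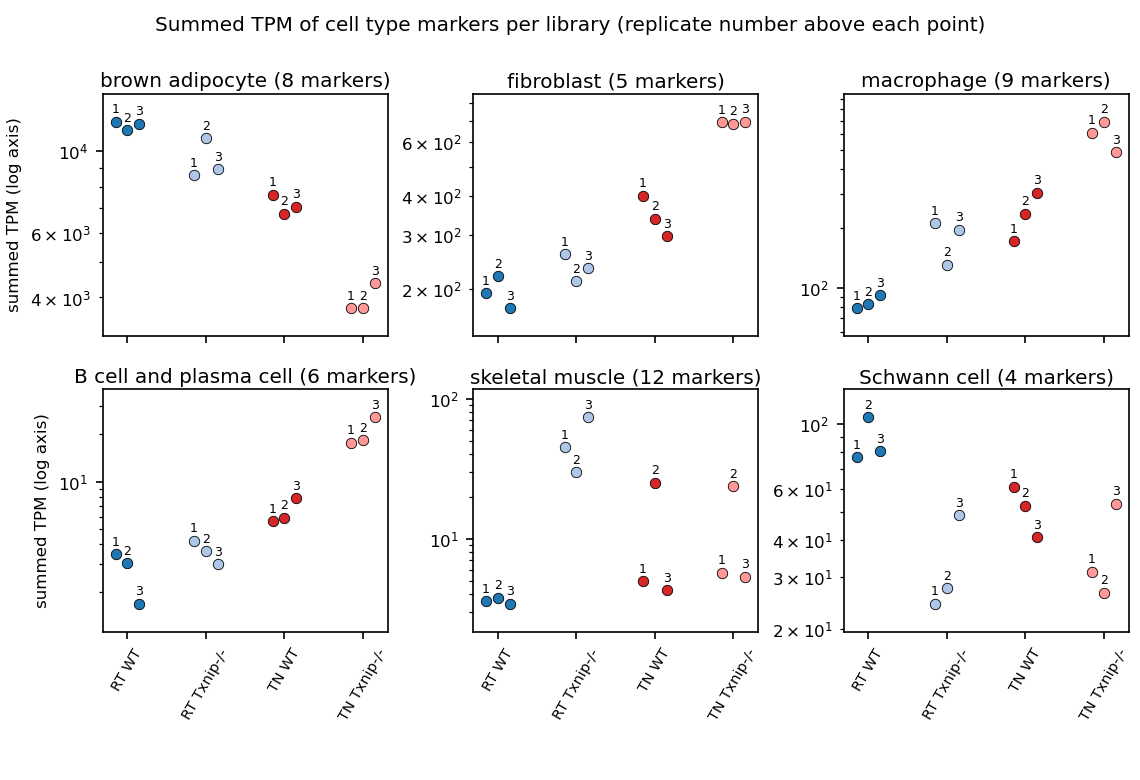
Summed TPM (log axis) of the marker genes of 6 cell types in each of the 12 libraries, by genotype within each temperature, with replicate numbers above the points. Macrophage and fibroblast sums are highest in the 3 TN Txnip-/- libraries (486 to 694 and 689 to 699 TPM), and skeletal muscle sums are highest in the 3 RT Txnip-/- libraries (29.8 to 73.7 TPM).

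Txnip itself (chr3:96557957-96561857, plus strand, mm10) was read at 564, 581 and 694 TPM in RT WT and at 24.8, 26.9 and 35.4 TPM in RT Txnip-/-. At TN it was read at 1238, 1083 and 1072 TPM in WT and at 11.0, 14.4 and 10.5 TPM in Txnip-/-. The WT libraries were higher at TN than at RT and the Txnip-/- libraries lower, with no overlap between any of the 4 groups. The difference was -4.36 ± 0.14 (SE) at RT and -6.46 ± 0.14 at TN, and the interaction was -2.09 ± 0.20 with an adjusted p of 0.00344 (0.000141 to 0.0227 over the alternatives). The targeted gene thus matched the genotype labels in all 12 libraries, and what its remaining reads represent was not tested.

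The stretch before the Txnip start is shown because WT libraries carried more of the transcript at TN. It was taken from RefSeq (chr3:96557707-96557956, plus strand, GRCm38.p6), with the carbohydrate response element in capitals, the paired E-box motif through which glucose metabolites act on transcription.
Txnip promoter: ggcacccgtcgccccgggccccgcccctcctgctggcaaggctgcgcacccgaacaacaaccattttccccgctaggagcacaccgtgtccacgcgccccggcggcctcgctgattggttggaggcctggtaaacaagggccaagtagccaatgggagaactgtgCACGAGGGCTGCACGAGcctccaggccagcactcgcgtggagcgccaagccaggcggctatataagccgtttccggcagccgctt
The element was searched as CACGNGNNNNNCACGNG on both strands and starts 85 bases before the gene start. Of 32851 promoters of the same length, 15 (0.0457%) hold it. The motif is a match of letters, and no binding was measured here.

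Gm15441 (chr3:96555768-96566801, minus strand), a noncoding gene that overlaps Txnip on the opposite strand, was TN-only, at 184, 188 and 220 TPM in RT WT, 169, 171 and 174 in RT Txnip-/-, 413, 337 and 323 in TN WT and 160, 174 and 141 in TN Txnip-/-. The 3 TN WT libraries stood above the other 9, and the genotypes did not overlap at either temperature. The interaction was -0.97 ± 0.15 (adjusted p 0.0776). Whether the counting used strand is not given in the sources used here, so reads of Txnip and Gm15441 cannot be told apart. Opposite-strand genes also overlap Ucp2 (Dnajb13), Pltp (Ctsa), Ctsb (Fdft1), Cryab (Hspb2), Mest (Copg2), Fabp3 (Zcchc17), Atp2a1 (Rabep2), Ckm, Acp5, Alas1, Hspa1a, Cish, Col5a1, Col15a1, Pdgfra, Zfp36l1 and Zfp36l2. Arrdc4, another alpha-arrestin gene under the same glucose-sensing control, went the other way. It was at 3.93 to 7.50 TPM in the RT libraries, 4.75 to 6.48 in TN WT and 14.2, 14.6 and 12.1 in TN Txnip-/-. Arrdc4 rose at TN by 1.20 ± 0.13 (adjusted p 0.000524), against 0.39 ± 0.13 at RT (adjusted p 0.157), with an interaction of 0.81 ± 0.19 (adjusted p 0.15).

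The 3 uncoupling protein genes had 3 different interactions. Ucp3 (chr7:100472991-100486432, plus strand) encodes the mitochondrial carrier that is abundant in muscle and brown fat and is induced by fatty acids. It was read at 109, 118 and 140 TPM in RT WT and 112, 111 and 82.1 in RT Txnip-/-. At TN it was read at 22.6, 22.6 and 24.4 TPM in WT and 43.7, 56.0 and 61.9 in Txnip-/-. The genotypes overlapped at RT and were apart at TN, where the WT libraries were the lowest of all 12. The TN Txnip-/- libraries stayed below every RT library. Ucp3 rose at TN by 1.17 ± 0.14 (adjusted p 0.000762) with -0.27 ± 0.14 at RT (adjusted p 0.367). Its interaction of 1.43 ± 0.20 had an adjusted p of 0.0776, 0.0172 with library weights and 0.0187 with the log-scale values of the authors, within 0.0172 to 0.191 over the alternatives. It was 1.29 to 1.58 with each library left out in turn.

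Ucp1, the uncoupling protein of thermogenesis, had an interaction of the other sign. It was read at 4366, 3809 and 3770 TPM in RT WT, 2527, 3900 and 2673 in RT Txnip-/-, 1136, 621 and 686 in TN WT and 255, 154 and 339 in TN Txnip-/-. One RT Txnip-/- library lay among the RT WT libraries, while the genotypes were apart at TN. The log2 difference of Ucp1 was -1.72 ± 0.28 at TN (adjusted p 0.0029) and -0.42 ± 0.28 at RT (adjusted p 0.493), but the interaction of -1.31 ± 0.40 did not pass (adjusted p 0.242). Ucp2, the member found in immune and many other cells, was read at 33.9 to 45.6 TPM in RT WT, 50.4 to 62.9 in RT Txnip-/-, 46.7 to 54.5 in TN WT and 91.1 to 116 in TN Txnip-/-. The genotypes of Ucp2 were apart at both temperatures with the same sign, 0.51 ± 0.13 and 0.98 ± 0.13, and its interaction was 0.47 ± 0.18 (adjusted p 0.322).

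Of the 29 genes of the thermogenic list, 9 fell at TN (all genes 2.51%) and 2 fell at RT (all genes 1.02%), and none rose at either temperature. Their median interaction was -0.19 (all genes -0.02), with 2 members higher and 3 lower at an unadjusted p under 0.05, close to the shares over all genes (6.13% and 6.46%). Cox8b (chr7:140898942-140900446, minus strand), the cytochrome c oxidase subunit isoform of brown fat and muscle, had the smallest adjusted p of the list, with 3540, 3401 and 3678 TPM in RT WT, 2617, 3084 and 2856 in RT Txnip-/-, 3028, 2379 and 2648 in TN WT and 1052, 1068 and 1282 in TN Txnip-/-. The genotypes were apart at both temperatures, RT Txnip-/- overlapped TN WT, and the TN Txnip-/- libraries were far below the rest. The interaction of Cox8b was -0.93 ± 0.15 (adjusted p 0.0776), from -0.31 ± 0.10 at RT and -1.24 ± 0.10 at TN.

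Cidea, which encodes a lipid droplet protein of brown adipocytes, went from 2273, 2642 and 2539 TPM in TN WT to 1677, 1667 and 1831 in TN Txnip-/-. The difference was -0.52 ± 0.08 at TN and -0.17 ± 0.08 at RT. The interaction of Cidea was -0.36 ± 0.11 (adjusted p 0.253). Lncbate10, a long noncoding RNA of brown fat, was read at 86.0, 80.7 and 64.6 TPM in RT WT, 35.1, 43.6 and 22.8 in RT Txnip-/-, 41.1, 30.2 and 44.7 in TN WT and 3.96, 1.73 and 7.44 in TN Txnip-/-. Its genotypes were apart at both temperatures in the same direction, with -1.20 ± 0.34 at RT, -3.01 ± 0.34 at TN and an interaction of -1.81 ± 0.48 (adjusted p 0.191). Not every thermogenic gene had a lower interaction. Irf4, a transcription factor induced by cold and fasting in brown fat, was at 0.97 ± 0.42 (adjusted p 0.365), and Adrb1, a beta-adrenergic receptor, was at 0.91.

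Several mitochondrial lists leaned to a lower interaction by small amounts. Of 78 mitochondrial ribosomal protein genes 19 were lower (all genes 6.46%) and 0 higher (all genes 6.13%) at an unadjusted p under 0.05 by limma, and 0 were called for the interaction in any of the alternatives that kept all libraries. Their medians were 0.01 at RT, -0.13 at TN and -0.13 for the interaction. Mrps5, a protein of the small subunit, was the clearest, at 54.0, 49.8 and 51.5 TPM in RT WT, 48.2, 52.1 and 51.8 in RT Txnip-/-, 49.8, 52.2 and 51.3 in TN WT and 41.0, 40.1 and 38.9 in TN Txnip-/-. The first 3 groups overlapped and the last lay below all of them. The interaction of Mrps5 was -0.32 ± 0.08 (adjusted p 0.16).

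Among 25 fatty acid oxidation genes 5 were lower (all genes 6.46%) and 0 higher at an unadjusted p under 0.05, with a median of -0.06 (all genes -0.02). Slc25a20, the carnitine-acylcarnitine carrier that brings fatty acids into mitochondria, was at 581, 571 and 543 TPM in RT WT and 457, 552 and 532 in RT Txnip-/-. At TN it was at 371, 328 and 331 TPM in WT and 243, 240 and 255 in Txnip-/-. The difference was -0.48 at TN, where it was called, and -0.14 at RT. Fabp3, a fatty acid binding protein, fell at both temperatures, with differences of -0.59 and -1.18 and an interaction of -0.59 ± 0.12. Mtx2, which encodes metaxin 2 of the mitochondrial outer membrane, was at 130 to 154 TPM in the RT libraries and in TN WT, and at 105, 101 and 110 TPM in TN Txnip-/-. Its interaction of -0.50 ± 0.09 had an adjusted p of 0.0776. The complex I list of 36 genes had 0 genes with an interaction at an unadjusted p under 0.05 and a median of -0.07. The 16 ATP synthase genes had a median of -0.06, but 2 were higher (all genes 6.13%) and 0 lower at an unadjusted p under 0.05. Atp5g1, which encodes a copy of the membrane ring subunit, rose at TN, from 6.95, 9.07 and 10.4 TPM in WT to 13.6, 21.2 and 13.3 in Txnip-/-, and was at 3.67 to 5.68 in the RT libraries. Its interaction was 0.89 ± 0.26 (adjusted p 0.225), and that of Atp5l was 0.31.

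Collagens and other matrix genes held the most TN-only genes of the 48 lists. Of 24 collagen genes 13 had a higher (all genes 6.13%) and 0 a lower interaction at an unadjusted p under 0.05, and 12 rose at TN (all genes 6.56%). The 9 TN-only collagen genes (all genes 3.16%) were Col5a1, Col5a2, Col5a3, Col6a1, Col6a2, Col6a3, Col15a1, Col16a1 and Col18a1. The medians of the collagen list were 0.19 at RT, 0.46 at TN and 0.39 for the interaction. Col6a2, a chain of the beaded-filament collagen VI of adipose tissue, was read at 26.5, 28.9 and 27.0 TPM in RT WT, 34.3, 28.7 and 33.2 in RT Txnip-/-, 51.0, 48.5 and 41.6 in TN WT and 95.9, 116 and 88.5 in TN Txnip-/-. The RT genotypes overlapped, both TN groups lay above them, and the genotypes were apart at TN. The interaction was 0.86 ± 0.15 for Col6a2 and 0.81 ± 0.14 for Col6a1, each with an adjusted p of 0.0776.

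Col3a1, a fibrillar collagen of soft tissue, was at 68.3, 72.6 and 60.5 TPM in RT WT, 104, 75.7 and 80.3 in RT Txnip-/-, 160, 126 and 109 in TN WT and 331, 333 and 334 in TN Txnip-/-. Its interaction of 0.99 ± 0.20 had an adjusted p of 0.115, and 0.0172 at the smallest over the alternatives. Among 45 matrix and fibroblast genes 18 were higher (all genes 6.13%) and 0 lower at an unadjusted p under 0.05. Of these 45, 22 rose at TN (all genes 6.56%), 1 rose at RT (all genes 1.16%) and 11 were TN-only (all genes 3.16%), and 2 passed the limit on mean TPM only through the TN Txnip-/- libraries. Mmp23, a membrane-bound metalloproteinase, was read at 2.49, 3.39 and 4.73 TPM in RT WT, 7.93, 5.81 and 7.66 in RT Txnip-/-, 2.7, 2.91 and 2.09 in TN WT and 14, 21.5 and 19.4 in TN Txnip-/-. It rose at both temperatures, by 0.86 and 2.42, so its interaction of 1.56 ± 0.27 (adjusted p 0.0776) was a difference in size and not in direction. Loxl1, which crosslinks elastin, and Pdgfra, the receptor that marks adipose progenitors, had interactions of 0.89 and 0.62. The fibroblast marker sums above rose in the same libraries, but every marker in them belongs to these collagen and matrix lists. They are the same genes and no separate evidence.

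Many macrophage genes rose at both temperatures. Of 25 genes 12 rose at RT (all genes 1.16%) and 22 at TN (all genes 6.56%), and 3 had a higher interaction at an unadjusted p under 0.05 (all genes 6.13%). Of 18 genes of lipid-associated macrophages, which take up lipid in fat tissue, 3 rose at RT (all genes 1.16%) and 11 at TN (all genes 6.56%). Among them 9 had a higher interaction at an unadjusted p under 0.05 (all genes 6.13%). The lists share members, such as Tyrobp with the macrophage list and Mmp12 with the matrix list. Of the 18, 2 passed the limit on mean TPM only through the TN Txnip-/- libraries, which favours a higher interaction. Gpnmb, a glycoprotein of these cells, was read at 0.342, 0.433 and 0.471 TPM in RT WT, 2.40, 0.961 and 1.15 in RT Txnip-/-, 1.26, 1.75 and 1.41 in TN WT and 10.3, 11.9 and 9.50 in TN Txnip-/-. The genotypes were apart at both temperatures, and RT Txnip-/- overlapped TN WT. Gpnmb rose by 0.78 ± 0.18 at RT and 2.22 ± 0.18 at TN, with an interaction of 1.44 ± 0.25 (adjusted p 0.0776). With 0.1 in place of 1 added to the TPM, the interaction of Gpnmb was 1.22 (adjusted p 0.295). Ctsk, the collagen-degrading cathepsin K of the same list, had an interaction of 0.78 (adjusted p 0.0938).

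Of 37 lysosome genes 12 had a higher (all genes 6.13%) and 0 a lower interaction (all genes 6.46%) at an unadjusted p under 0.05, with a median of 0.16 (all genes -0.02). Of these 37 genes 1 passed the limit on mean TPM only through the TN Txnip-/- libraries, as did 1 of the 25 macrophage genes. Ctsb, the abundant protease cathepsin B, was at 396 to 483 TPM in the RT libraries and in TN WT, and at 694, 692 and 610 TPM in TN Txnip-/-. It rose at TN by 0.59 and differed by 0.17 at RT (interaction 0.42 ± 0.09, adjusted p 0.13). Ctsb is also on the lipid-associated macrophage list, as are Ctsd, Ctsl, Cd63, Lipa and Atp6v0d2. Gaa, the acid glucosidase of lysosomal glycogen, is not on that list and had an interaction of 0.34.

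Of 20 complement genes 15 rose at TN (all genes 6.56%) and 7 had a higher (all genes 6.13%) and 0 a lower interaction at an unadjusted p under 0.05. Clu, the secreted chaperone clusterin that restrains the terminal complement complex, was read at 9.07, 10.3 and 9.33 TPM in RT WT, 41.8, 23.2 and 22.8 in RT Txnip-/-, 23.3, 29.9 and 32.9 in TN WT and 230, 175 and 234 in TN Txnip-/-. It rose at both temperatures, by 1.46 ± 0.21 and 2.85 ± 0.21, with an interaction of 1.39 ± 0.29 (adjusted p 0.125). C3, the central complement component, was at 168 to 248 TPM in all RT libraries. At TN it was at 115, 109 and 129 TPM in WT and 238, 278 and 195 in Txnip-/-, so TN WT was the group apart. The interaction of C3 was 0.84 ± 0.20 (adjusted p 0.15).

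Jchain, the joining chain of secreted antibodies made by plasma cells, was read at 0.404, 0.456 and 0.274 TPM in RT WT, 1.78, 1.76 and 1.45 in RT Txnip-/-, 0.830, 1.33 and 2.54 in TN WT and 12.5, 11.7 and 14.3 in TN Txnip-/-. It rose by 0.95 ± 0.19 at RT and 2.48 ± 0.19 at TN, with an interaction of 1.53 ± 0.27 (adjusted p 0.0776). With 0.1 added to the TPM instead of 1, it was 1.18 (adjusted p 0.339). The summed markers of B cells and plasma cells, of which Jchain is 1, ran from 1.68 to 3.47 TPM in RT WT to 17.7 to 25.6 in TN Txnip-/-. Jchain alone gave 11.7 to 14.3 TPM of the last sum, so the sum largely repeats it. Of the 6 markers 3 were tested, and Mzb1 was at 0 in at least 1 library. Of 12 lymphocyte genes tested, 4 had a higher (all genes 6.13%) and 0 a lower interaction at an unadjusted p under 0.05. Without the TN Txnip-/- libraries 3 of the 12 would not have passed the limit on mean TPM, so this count leans to a higher interaction by that choice.

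Several TN-only genes had RT differences close to 0. Fah, the last enzyme of tyrosine breakdown, was read at 51.4, 50.1 and 57.7 TPM in RT WT, 50.8, 57.4 and 55.2 in RT Txnip-/-, 26.3, 24.3 and 24.8 in TN WT and 46.3, 57.8 and 43.3 in TN Txnip-/-. As with Ucp3, the TN WT libraries were the lowest of all. TN Txnip-/- overlapped the RT range, with 0.04 ± 0.10 at RT, 0.93 ± 0.10 at TN and an interaction of 0.89 ± 0.14 (adjusted p 0.0776). Pltp, a phospholipid transfer protein of lipoproteins, was at 52.4 to 62.4 TPM in the RT libraries, 45.3 to 52.7 in TN WT and 78.2 to 89.7 in TN Txnip-/-. It rose at TN by 0.75 ± 0.08 with 0.01 ± 0.08 at RT (interaction 0.74 ± 0.12, adjusted p 0.0776).

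Mest, an imprinted gene whose level goes with fat cell size, was at 2.26, 2.36 and 2.38 TPM in RT WT, 2.20, 1.58 and 1.75 in RT Txnip-/-, 4.72, 4.78 and 3.76 in TN WT and 7.14, 7.48 and 8.17 in TN Txnip-/-. The genotypes were apart at both temperatures and in opposite order, though the RT difference of -0.23 ± 0.10 was not called. Mest had an interaction of 0.90 ± 0.15 (adjusted p 0.0776) and counts as both TN-only and opposite. Id1, an inhibitor of helix-loop-helix transcription factors, was at 72.7 to 104 TPM in the RT libraries, 25.3, 28.0 and 37.5 in TN WT and 40.7, 48.1 and 65.9 in TN Txnip-/-, with an interaction of 1.04 ± 0.25. Cryab, a small heat shock protein, was at 17.0 to 27.9 TPM in the RT libraries, 33.1 to 40.2 in TN WT and 71.7 to 118 in TN Txnip-/-, with an interaction of 1.16.

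The other TN-only genes with a large interaction had all 3 TN Txnip-/- libraries above the rest. Sctr, the secretin receptor, was at 7.26 to 10.4 TPM in the RT libraries, 7.16 to 10.2 in TN WT and 17.2, 13.6 and 13.2 in TN Txnip-/-, with an interaction of 0.99 ± 0.18 (adjusted p 0.0895). Tent5a, a poly(A) polymerase, had an interaction of 1.27 ± 0.44 (adjusted p 0.283) and Ier5, an immediate early gene, of 1.20 ± 0.34 (adjusted p 0.209). Ifi30, a thiol reductase of lysosomes, was at 0.90 ± 0.20 and the gene Gm16143 at 0.99 ± 0.24, and opposite-strand genes overlap both.

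**Figure D3:**
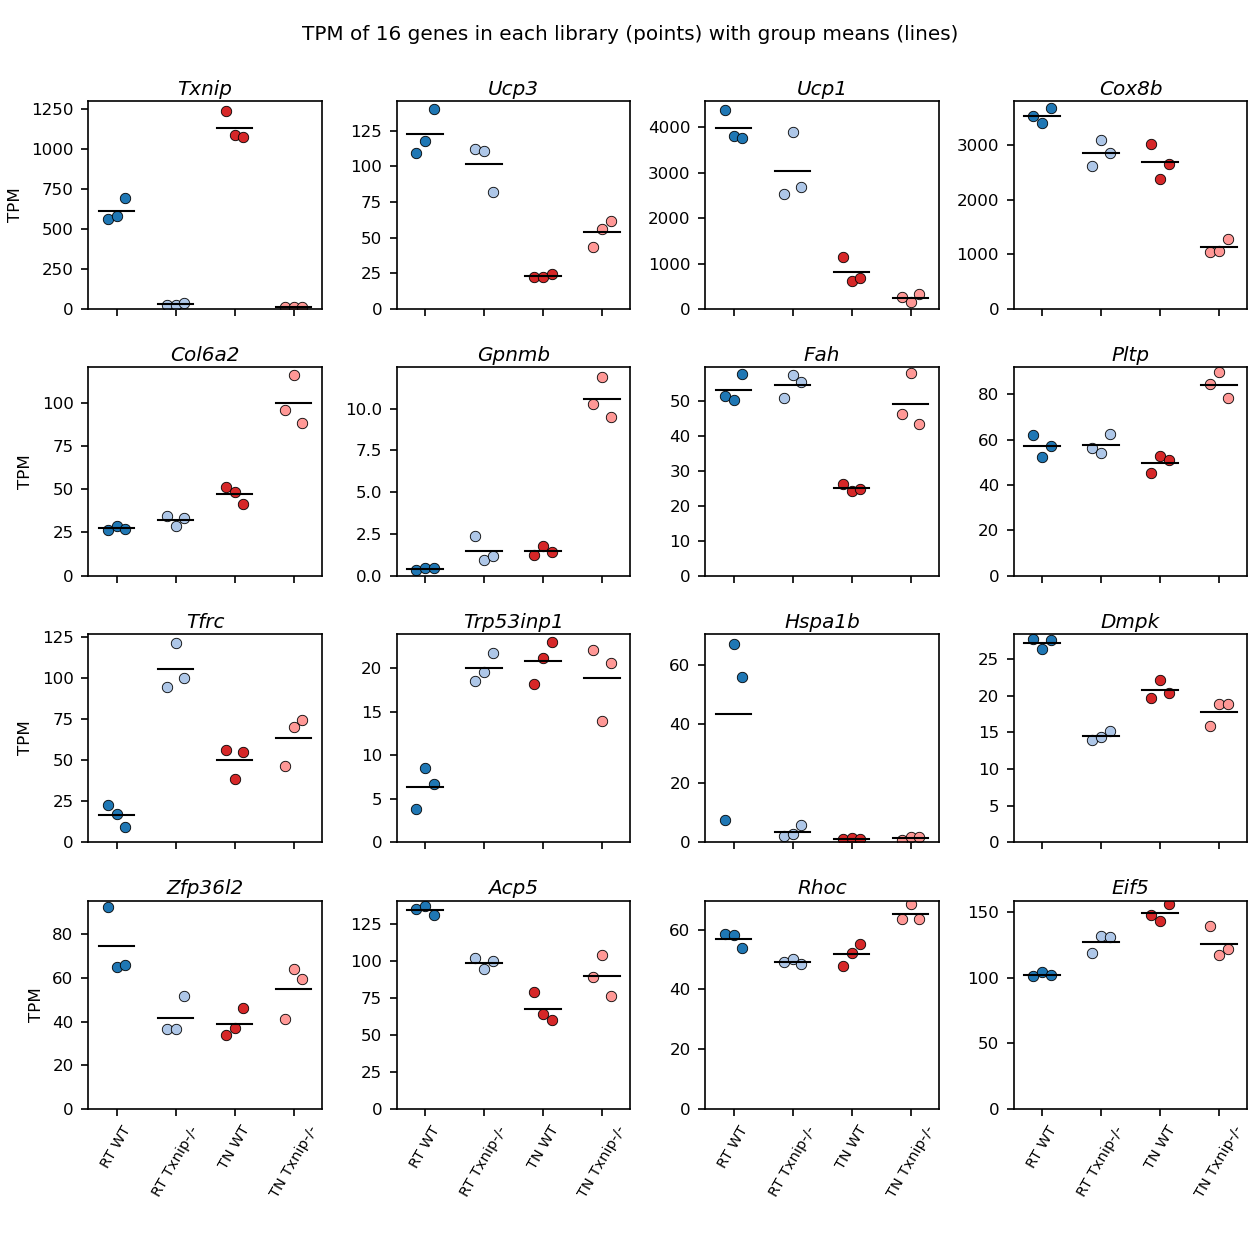
TPM per library of 16 genes described here, 1 panel per gene with its own linear axis from 0, with the 3 libraries of each group as points and a line at the group mean. In the Ucp3 panel the TN WT libraries are the lowest (22.6 to 24.4 TPM) and in the Tfrc panel the RT WT libraries are (9.42 to 22.6 TPM).

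Tfrc (chr16:32608896-32632794, plus strand), the transferrin receptor through which cells take up iron, had the largest interaction by size among the 25 genes with an adjusted p under 0.1. It was read at 22.6, 16.9 and 9.42 TPM in RT WT, 94.4, 121 and 99.6 in RT Txnip-/-, 56.3, 38.7 and 54.9 in TN WT and 46.4, 70.0 and 74.0 in TN Txnip-/-. At RT the Txnip-/- libraries were the highest of all and the WT libraries the lowest, while the genotypes overlapped at TN. Tfrc rose at RT by 2.69 ± 0.27 (adjusted p 0.000818), against 0.33 ± 0.27 at TN (adjusted p 0.5), and its interaction was -2.36 ± 0.38 (adjusted p 0.0776, 0.0172 to 0.196 over the alternatives). Its TN value lay just past the fold limit, so it is not counted among the RT-only genes.

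Other genes of iron handling were mixed. Slc40a1, the iron exporter ferroportin, was RT-only, at 23.5, 16.5 and 9.78 TPM in RT WT, 5.97, 4.46 and 5.80 in RT Txnip-/-, 30.1, 15.2 and 14.4 in TN WT and 16.1, 15.1 and 17.3 in TN Txnip-/-, and RT Txnip-/- was the lowest group. Its difference at RT was -1.38 ± 0.29, and it had an interaction of 1.18 ± 0.41 (adjusted p 0.283). Alas1, the first enzyme of heme synthesis, chosen after its values were seen, was at 154, 127 and 186 TPM in RT WT and 307, 231 and 248 in RT Txnip-/-, with 305 to 373 in the TN libraries. It rose at RT by 0.75 ± 0.14 with 0.11 ± 0.14 at TN (interaction -0.64 ± 0.19, adjusted p 0.231). Over the 16 iron genes 3 were higher (all genes 6.13%) and 1 lower (all genes 6.46%) at an unadjusted p under 0.05, with a median of 0.10.

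The largest RT-only values were those of 2 heat shock genes. Hspa1b encodes an inducible HSP70 chaperone and was read at 7.36, 67.1 and 56.0 TPM in RT WT, 2.21, 2.71 and 5.75 in RT Txnip-/-, 1.02, 1.43 and 1.19 in TN WT and 0.766, 1.74 and 1.82 in TN Txnip-/-. Hspa1a, its near-identical neighbour, was at 5.55, 47.2 and 29.5 TPM in RT WT, 1.71, 1.47 and 2.53 in RT Txnip-/-, and 0.622 to 1.46 in the TN libraries. The high values were those of the RT WT libraries numbered 2 and 3. Both genes fell at RT, with a difference of -2.89, and had interactions of 3.0 ± 0.87 for Hspa1b (adjusted p 0.221) and 2.82 ± 0.75 for Hspa1a (adjusted p 0.191). Without the RT WT library numbered 1, the adjusted p was 0.00403 for Hspa1b and 0.00138 for Hspa1a, and without the library numbered 2 it was 0.381 and 0.337.

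The promoters are shown because these copies moved together and share reads. Both are from RefSeq (minus strand, GRCm38.p6), Hspa1a from chr17:34972157-34972406 and Hspa1b from chr17:34959239-34959488. Capitals mark the heat shock element core, searched as GAANNTTC, and a CCAAT box on the opposite strand.
Hspa1a promoter: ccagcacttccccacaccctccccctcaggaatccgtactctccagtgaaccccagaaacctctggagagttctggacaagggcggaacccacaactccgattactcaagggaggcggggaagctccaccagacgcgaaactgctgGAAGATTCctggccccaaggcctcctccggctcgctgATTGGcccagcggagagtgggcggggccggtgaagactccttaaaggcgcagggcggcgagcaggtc
Hspa1b promoter: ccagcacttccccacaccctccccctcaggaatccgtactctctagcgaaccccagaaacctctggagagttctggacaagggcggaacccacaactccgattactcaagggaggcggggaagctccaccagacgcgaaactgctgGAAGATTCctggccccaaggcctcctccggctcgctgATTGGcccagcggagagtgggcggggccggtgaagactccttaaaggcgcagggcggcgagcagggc
The stretches share 247 of 250 bases (98.8%). In both, the core starts 104 bases and the box 67 bases before the gene start. On either strand, the core is in 2199 of 32851 promoters (6.69%) and the box in 11120 (33.8%), so neither is particular to these genes. Of the 2893 windows of 75 bases in the Hspa1a transcript, 1524 (52.7%) also occur in Hspa1b, so the reads of this pair cannot be fully assigned.

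The list of 28 immediate early and heat shock genes had a median of -0.41 at RT, 0.06 at TN and 0.46 for the interaction, with 5 members higher (all genes 6.13%) and 0 lower (all genes 6.46%) at an unadjusted p under 0.05. Its mean log2(TPM + 1) was 5.22, 5.33 and 5.37 in RT WT, 4.79, 4.55 and 4.77 in RT Txnip-/-, 4.62, 4.72 and 4.74 in TN WT and 4.68, 4.80 and 4.80 in TN Txnip-/-. RT WT was the group apart.

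Skeletal muscle genes were the list with the lowest median interaction. Of 30 genes 16 passed the limit on mean TPM, and 6 of these would not have without the RT Txnip-/- libraries, so counts and medians over those tested lean to a lower interaction by that choice. Of the 16 genes 8 rose (all genes 1.16%) and 1 fell (all genes 1.02%) at RT and 1 fell at TN (all genes 2.51%). In these 16, 9 had a lower (all genes 6.46%) and 0 a higher interaction at an unadjusted p under 0.05, and the medians were 1.65 at RT, 0.05 at TN and -1.55 for the interaction. Ckm, the creatine kinase of muscle, was read at 0.159, 0.032 and 0.041 TPM in RT WT, 5.41, 3.75 and 9.32 in RT Txnip-/-, 0.144, 2.90 and 0.170 in TN WT and 0.180, 2.33 and 0.160 in TN Txnip-/-. The 3 RT Txnip-/- libraries were the highest, followed by the TN libraries numbered 2 of both genotypes. The interaction of Ckm was -2.73 ± 0.70 (adjusted p 0.187), and that of Atp2a1, the calcium pump of fast muscle, was -2.08 ± 0.57 (adjusted p 0.196). These follow the muscle marker sums above, to which most of these genes belong. Ckm is among the genes that passed the limit on mean TPM only through the RT Txnip-/- libraries, which favours a lower interaction. A list of creatine and calcium cycling genes that holds Atp2a1 had 1 such gene.

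Other RT-only genes were more even within groups. Trp53inp1, a stress-induced partner of p53, was read at 3.87, 8.54 and 6.74 TPM in RT WT, 18.6, 19.6 and 21.8 in RT Txnip-/-, 18.2, 21.2 and 23.0 in TN WT and 22.1, 13.9 and 20.6 in TN Txnip-/-. RT WT was the low group and the other 3 overlapped, with 1.56 ± 0.22 at RT and an interaction of -1.72 ± 0.31 (adjusted p 0.0895). Dmpk, the kinase gene of myotonic dystrophy, was at 27.7, 26.3 and 27.5 TPM in RT WT, 13.9, 14.3 and 15.1 in RT Txnip-/-, 19.6, 22.1 and 20.4 in TN WT and 15.8, 18.8 and 18.8 in TN Txnip-/-. It fell at RT, with -0.87 ± 0.08 (adjusted p 0.000398) against -0.21 ± 0.08 at TN, with an interaction of 0.66 ± 0.11 (adjusted p 0.0776).

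Rgs2, an inhibitor of G protein signalling, was at 61.5 to 75 TPM in RT WT, 131, 88.2 and 128 in RT Txnip-/-, and 143 to 235 in the TN libraries. It rose at RT by 0.75 and had an interaction of -0.97 ± 0.25 (adjusted p 0.183). Fhl3, a LIM domain protein, and Sbsn, a secreted epithelial protein, also rose at RT, with interactions of -0.70 ± 0.15 and -0.68 ± 0.20. Hic1, a transcriptional repressor, and Myh14, a nonmuscle myosin heavy chain, fell at RT, with interactions of 0.75 ± 0.21 and 0.68 ± 0.15. The genotypes of these 5 genes did not overlap at RT (all genes 23.0%), which their call at RT largely fixes.

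A pair of further RT-only genes was chosen after their values were seen. Neat1, the long noncoding RNA that builds nuclear paraspeckles, was at 614, 636 and 630 TPM in RT WT and 384, 403 and 454 in RT Txnip-/-, with 487 to 642 in the TN libraries. Neat1 fell at RT, with -0.60 ± 0.10, and differed by 0.02 ± 0.10 at TN (interaction 0.62 ± 0.14, adjusted p 0.141). Inka1, an inhibitor of the kinase PAK4, was at 10.3, 9.34 and 10.2 TPM in RT WT and 6.64, 6.39 and 6.24 in RT Txnip-/-, with 11.2 to 13.2 in the TN libraries. Its interaction was 0.63 ± 0.11 (adjusted p 0.0776). In both, RT Txnip-/- was the low group and the genotypes overlapped at TN.

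Genes with opposite differences included a pair of RNA-binding proteins that destabilise AU-rich transcripts. Zfp36l2 was read at 92.5, 65.2 and 66.1 TPM in RT WT, 36.7, 36.5 and 51.9 in RT Txnip-/-, 33.7, 37.1 and 46.1 in TN WT and 41.1, 64.0 and 59.6 in TN Txnip-/-. WT was higher at RT without overlap, and the TN genotypes overlapped by 1 library. The differences were -0.82 ± 0.20 and 0.47 ± 0.20, with an interaction of 1.30 ± 0.28 (adjusted p 0.132). Zfp36l1, its paralog, was at -0.51 ± 0.17 and 0.40 ± 0.17, with an interaction of 0.91 ± 0.24 (adjusted p 0.191).

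Rhoc, a small GTPase of the actin skeleton, was read at 58.5, 58.3 and 54.0 TPM in RT WT, 49.1, 50.1 and 48.4 in RT Txnip-/-, 47.9, 52.1 and 55.1 in TN WT and 63.6, 68.7 and 63.7 in TN Txnip-/-. The genotypes were apart at both temperatures in opposite order, and the interaction was 0.54 ± 0.09 (adjusted p 0.0776). Eif5, a factor of translation start, had the reverse order. It was at 101, 104 and 102 TPM in RT WT, 119, 132 and 131 in RT Txnip-/-, 148, 143 and 156 in TN WT and 139, 117 and 122 in TN Txnip-/-. The genotypes of Eif5 did not overlap at either temperature, with 0.31 ± 0.07 at RT, -0.24 ± 0.07 at TN and an interaction of -0.55 ± 0.10 (adjusted p 0.0776).

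Acp5, the tartrate-resistant acid phosphatase of macrophages and osteoclasts, was at 135, 137 and 131 TPM in RT WT, 94.5 to 102 in RT Txnip-/-, 60 to 79.1 in TN WT and 89.3, 104 and 76.6 in TN Txnip-/-. It was -0.44 ± 0.11 at RT and 0.40 ± 0.11 at TN, where the groups overlapped by 1 library, and its interaction was 0.85 ± 0.16 (adjusted p 0.0938). Hmox1, the heme oxygenase that releases iron, was at 6.23, 9.34 and 11.3 TPM in RT WT, 6.42, 5.34 and 6.35 in RT Txnip-/-, 8.38, 12.3 and 12.4 in TN WT and 14.5, 17.5 and 13.2 in TN Txnip-/-. Only the TN genotypes of Hmox1 were apart, and its interaction of 0.90 ± 0.27 did not pass (adjusted p 0.233).

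Zdhhc12, a palmitoyl transferase, was at 5.64 to 6.74 TPM in RT WT, 4.88 to 5.23 in RT Txnip-/-, 5.43 to 6.53 in TN WT and 7.46 to 8.95 in TN Txnip-/-. Its interaction was 0.70 ± 0.13 (adjusted p 0.0938), with genotypes apart at both temperatures. Plau, the protease urokinase, had an interaction of 0.81 ± 0.19 (adjusted p 0.155), and Npdc1 and Sash1 had 0.57 ± 0.13 and 0.57 ± 0.14. The gene 4930549G23Rik had the reverse order, above WT at RT and below it at TN without overlap.

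**Figure D4:**
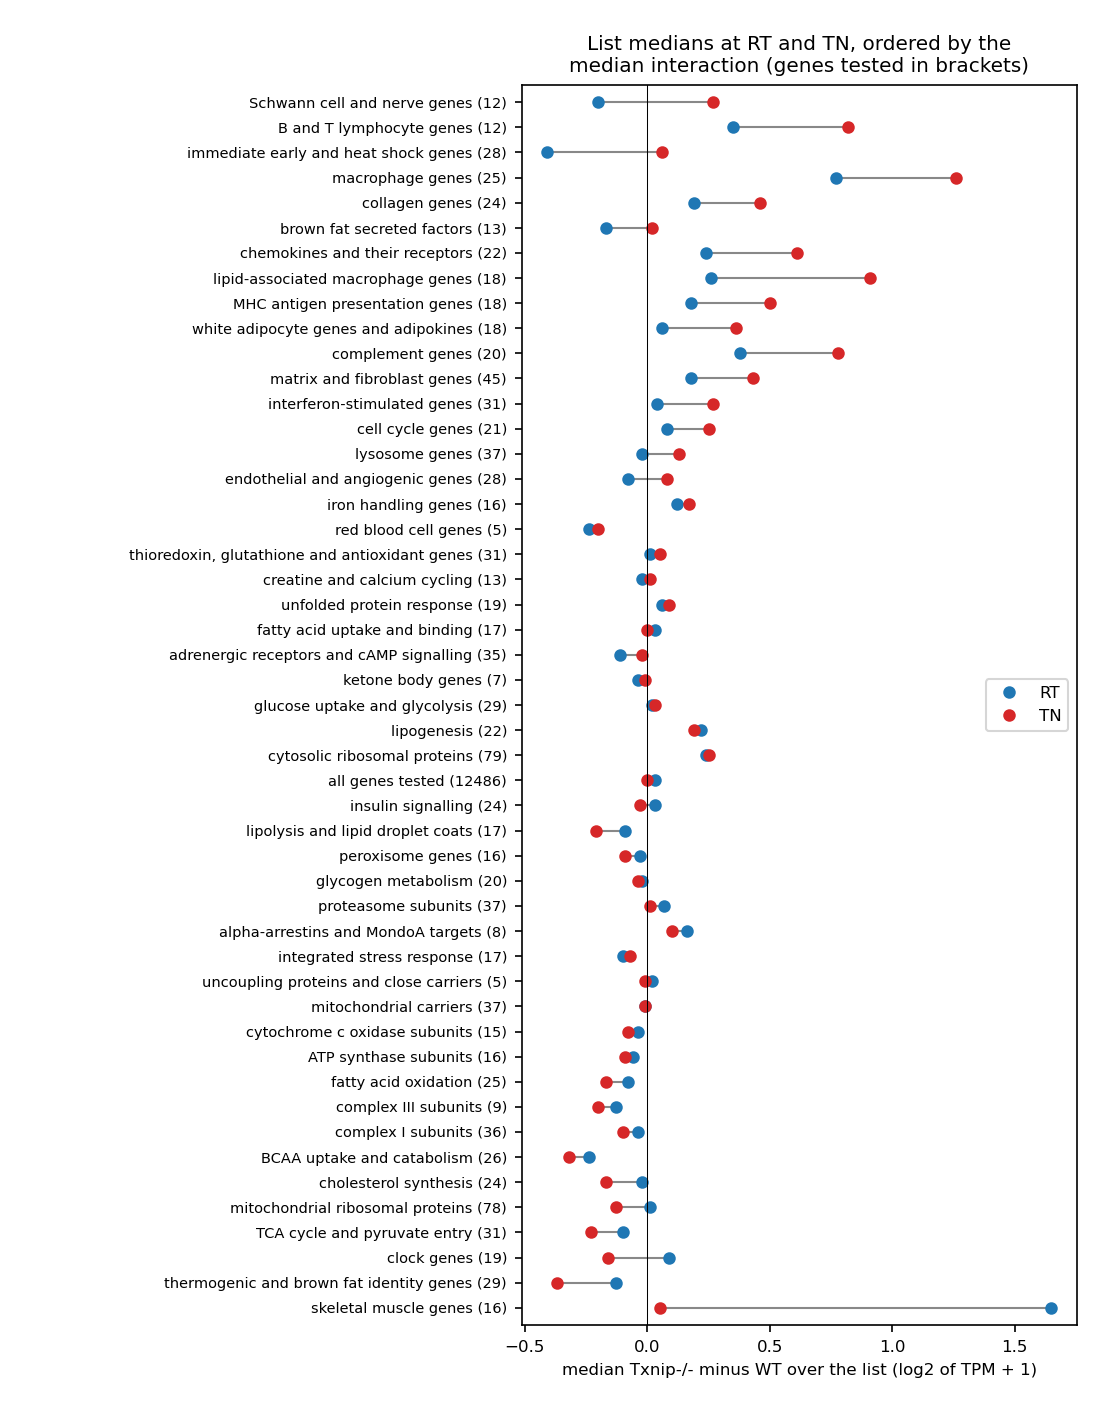
Median log2 difference of Txnip-/- against WT at RT and at TN for each gene list, with lists ordered by their median interaction. Skeletal muscle genes have the lowest median interaction (-1.55), and collagen genes have 0.19 at RT and 0.46 at TN.

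The Schwann cell and nerve list had the highest median interaction of the 48 lists, 0.50 over 12 genes, from medians of -0.20 at RT and 0.27 at TN. The mean log2(TPM + 1) of these genes was 2.34, 3.12 and 2.32 in RT WT and 2.01, 1.86 and 2.46 in RT Txnip-/-. At TN their mean was 2.85, 2.67 and 2.61 in WT and 2.64, 2.38 and 2.98 in Txnip-/-. The genotypes overlapped at both temperatures, and the RT WT library numbered 2 was the highest of all libraries for these genes. Of these genes 11 had an interaction above 0 (5743 of all 12486 genes), and 3 were higher (all genes 6.13%) and 0 lower at an unadjusted p under 0.05. At each temperature 2 of the 12 fell and 0 rose (all genes 1.02% lower at RT and 2.51% at TN). Gldn, the nodal protein gliomedin, was at -2.57 at RT and -2.83 at TN, and S100b, a calcium-binding protein of Schwann cells and adipocytes, was at -1.60 and -1.12. Both were chosen after their values were seen, and their interactions were -0.25 and 0.48. Of 21 cell cycle genes 5 were higher (all genes 6.13%) and 0 lower, 6 rose at TN (all genes 6.56%) and 3 were TN-only (all genes 3.16%), with a median of 0.16. Of these 21, 3 passed the limit on mean TPM only through the TN Txnip-/- libraries, which favours a higher interaction.

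Several lists had few members with an interaction, although some moved with genotype. The 79 cytosolic ribosomal protein genes had medians of 0.24 at RT and 0.25 at TN and of -0.01 for the interaction. At an unadjusted p under 0.05, 1 member was higher (all genes 6.13%) and 1 lower (all genes 6.46%). Of these 79, 10 rose at RT (all genes 1.16%), and 12 rose (all genes 6.56%) and 1 fell (all genes 2.51%) at TN. Of 26 genes of branched-chain amino acid breakdown 5 fell at RT (all genes 1.02%) and 13 at TN (all genes 2.51%), and 1 had a lower interaction at an unadjusted p under 0.05 (all genes 6.46%). The 19 genes of the unfolded protein response had 0 members with an interaction at an unadjusted p under 0.05. Of 31 interferon-stimulated genes 1 was higher (all genes 6.13%) and 0 lower (all genes 6.46%) at an unadjusted p under 0.05. Yet 30 of the 31 had an interaction above 0 (5743 of all 12486 genes), and their median was 0.23 (all genes -0.02).

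Some of the largest interactions by size came from genes whose libraries of a group disagreed. Cish, a target of cytokine and growth hormone signalling, was read at 17.3, 36.8 and 49.5 TPM in RT WT, 12.6, 18.0 and 21.7 in RT Txnip-/-, 4.70, 11.8 and 36.4 in TN WT and 20.1, 61.7 and 34.2 in TN Txnip-/-. Both pairs of genotypes overlapped, and the interaction of 2.22 ± 0.86 had an adjusted p of 0.33. Mfsd2a, a lysolipid transporter, was at 4.37, 15.9 and 28.7 TPM in RT WT and 6.01, 3.81 and 1.45 in RT Txnip-/-, with at most 0.211 in the TN libraries. Its interaction of 1.69 ± 0.72 had an adjusted p of 0.36. With TN levels this low, the interaction of Mfsd2a is almost the RT difference alone. It passed the limit on mean TPM only through the RT libraries. Further large interactions, given without library values, were those of Insig1 and Trib3, targets of sterol and stress signalling, at -1.26 and -1.20. Whether the libraries of these and the following genes disagreed is not shown. Gadd45g, a stress-response gene, was at 1.40. Erdr1 was at 1.36 ± 0.61 and Ier3, an immediate early gene, at 1.34 ± 0.34. Gys2, the glycogen synthase of liver and fat, was at -1.04 ± 0.45 and Mir378a, a microRNA gene, at -1.43 ± 0.58, each with an adjusted p over 0.05.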

How the data were processed

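RNA-seq libraries of interscapular BAT, 3 per group in 4 groups, were taken from the labels. The authors aligned the single-end reads to mm10 with STAR 2.7.5a, counted exon reads with HOMER 4.11.1, kept 1 transcript per gene and deposited TPM for 25124 genes in all 12 libraries. The values listed add up to 55.38% to 57.55% of a full TPM total. Per temperature, the authors also deposited log2 values of 6 libraries, normalized by a transform the tables do not name. The same tables hold the authors' fold changes and p-values of Txnip-/- against WT, which were not used. Transcript lengths are in the same tables. The transcript kept in the log-scale tables differs from that of the TPM for 4959 genes at RT and 4899 at TN. No counts were used, and the counting error of a value is therefore unknown.

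Values of genes averaging 1 TPM or more were fitted as log2(TPM + 1) in R 4.3.3 with limma 3.58.1, with 4 group means over 12 libraries, 8 residual degrees of freedom, empirical Bayes moderation with a trend, and Benjamini-Hochberg adjustment over all 12486 genes. The same fit gave the effect at each temperature. Gene lists (48, of 1313 symbols, 1312 in the table) are described by counts and medians, with no test. The genes, lists and patterns were chosen with earlier results of these data known.

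The text draws the genes it names from a rule: Txnip, Ucp3, every gene with an interaction adjusted p under 0.05 in the fit or in an alternative that kept all libraries, the 10 largest interactions of each sign and of each pattern above a mean TPM of 5, and list members with an unadjusted p under 0.05 (at most 4 per list) or the largest size. Other genes are marked as chosen after their values were seen, apart from genes given only as counted members or markers. Of the genes that qualify by an alternative or as list members a part is described, and 1 gene is not reported.

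Alternatives were log2(TPM + 0.1), other filters, upper-quartile scaling, median centring, the replicate number as a block, library weights, no trend, the log-scale values of the authors, and each library left out. Leaving out both TN libraries numbered 2, which were high in muscle and red blood cell markers, was added after the data were seen. Same-numbered libraries had deviations correlated across genes with r of 0.297, -0.022 and 0.21 at RT and 0.042, 0.023 and -0.036 at TN, so the numbers were not taken to pair samples. Promoters and their motifs came from RefSeq (GRCm38.p6), and overlapping genes from the GENCODE annotation. Python 3.11.15 with matplotlib 3.10.9 drew the figures.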

Additional observations from a re-analysis of the deposited data

Results flagged for a closer look

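Txnip was the gene whose difference between genotypes differed between the temperatures by a test of the difference itself, with an interaction of -2.09 ± 0.20 on log2(TPM + 1) and an adjusted p of 0.00344 by limma. Its value was negative with every library left out in turn, at -2.22 to -1.95. No other single gene met the criterion.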

How the results depend on the processing

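The number of genes with an interaction at an adjusted p under 0.05 was 1, and became 60 with library weights, 42 with the log-scale values of the authors, 4 with the replicate block (Ckm, Id1, Tnnc2 and Txnip) and 2 without both TN libraries numbered 2 (AF357359 and Txnip). It ranged from 1 to 6 with each library left out, with 6 (Hspa1a, Hspa1b, Snora33, Tfrc, Txnip and Ucp3) without RT WT library 1. It was 3 without RT Txnip-/- library 1 (Clu, Gpnmb and Txnip), 3 without TN Txnip-/- library 1 (Dmpk, Txnip and Ucp3), 2 without TN Txnip-/- library 2 and 2 without TN WT library 3 (Jchain and Txnip). At an unadjusted p under 0.05 the leave-one-out range was 1136 to 1857. Genes called at RT numbered 122 with all genes, 593 with weights, 151 with the log-scale values of the authors, 165 with the block, 178 with RT libraries alone and 175 without both TN libraries numbered 2, and 80 to 358 with a library left out. Genes called at TN numbered 743 with the log-scale values of the authors, 607 without both TN libraries numbered 2, and 676 to 1161 with a library left out. TN-only genes numbered 218 without both TN libraries numbered 2, and 203 to 477 with a library left out. Of the 203 left without TN Txnip-/- library 2, 189 were among the 394. RT-only genes numbered 34 with all genes, 150 with weights, 40 without both TN libraries numbered 2, and 13 to 70 with a library left out. Opposite genes numbered 99 with all genes, 137 with weights, 34 without both TN libraries numbered 2, and 34 to 105 with a library left out. The replicate block gave 379 TN-only, 49 RT-only and 79 opposite genes; the numbers mark no known pairing. The interaction of Hba-a2 (0.11) was -0.19 with weights, -0.13 without both TN libraries numbered 2 and -0.40 to 0.43 with a library left out. Counted over lists and alternatives, 68 list medians were marked as moved and 988 as unchanged. The cause of these changes was not tested. With 3 libraries per group and 8 residual degrees of freedom, a gene short of the threshold is not shown to respond alike at both temperatures.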
